A study of Mus musculus with 30 samples.

Results

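Described here are 10 imprinted genes of growth control, H19, Igf2, Dlk1, Meg3, Rian, Peg3, Mest, Plagl1, Cdkn1c and Magel2, in the fracture callus of Lean mice and of mice with diet-induced obesity (DIO). They are 10 of the 43629 genes in the deposited count table, and each was found there by its Ensembl identifier. H19 and Magel2 were picked because earlier results of these data had shown them to change, so these 2 were selected on the values of the libraries described here and their values are given as a description, without a test. The other 8 were named as members of the same imprinted group, and tests are given for these alone. They too were chosen with earlier results of these data known, so their tests are not independent of that choice.

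The study followed healing of a tibial fracture by bulk RNA-seq of poly(A) RNA, to compare healing under the 2 diets. All mice were male C57BL/6J, aged 20 weeks at surgery, with an open osteotomy of the right tibia held by an intramedullary nail. The DIO mice ate a high-fat diet and the Lean mice a lean diet up to harvest. The libraries analysed here are from calli of both diets taken 3, 5, 7 and 10 days after fracture (d3 to d10) and of DIO mice at d14 and d21, and Lean calli of the last 2 times were not analysed here. Each of the 10 groups held 3 mice and each of the 30 libraries 1 callus. No mutation or transgene is named for any group.

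An imprinted gene is transcribed mainly from the copy inherited from one of the parents, under the control of methylation set in the germ line. Paternally expressed members such as Igf2, Dlk1, Peg3, Mest and Plagl1 are known mostly for promoting fetal growth, and maternally expressed members such as H19, Meg3 and Cdkn1c for restraining it. Many of them are high in the embryo and are switched down after birth, and several, Igf2 and H19 among them, are known to return in regenerating muscle. Short-read counts do not say which parental copy was read.

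On the mouse genome GRCm38, with GENCODE M21 gene models, 5 members lie on chromosome 7. These are Peg3 (ENSMUSG00000002265, chr7:6703892-6730431, minus strand), Magel2 (ENSMUSG00000056972, chr7:62377010-62381640, plus strand), H19 (ENSMUSG00000000031, chr7:142575529-142578143, minus strand), Igf2 (ENSMUSG00000048583, chr7:142650766-142666816, minus strand) and Cdkn1c (ENSMUSG00000037664, chr7:143458339-143461050, minus strand). H19 and Igf2 are neighbours that share an imprinting control region. Chromosome 12 carries Dlk1 (ENSMUSG00000040856, chr12:109452823-109463336, plus strand), Meg3 (ENSMUSG00000021268, chr12:109541001-109571726, plus strand) and Rian (ENSMUSG00000097451, chr12:109603940-109661716, plus strand), in that order. Mest (ENSMUSG00000051855, chr6:30723547-30748465, plus strand) and Plagl1 (ENSMUSG00000019817, chr10:13060504-13131694, plus strand) are each the only member on their chromosome. Values cover the exons of each gene. For Igf2, 62.8% of the exon bases are shared with Gm49394, a gene on the same strand that has no row in the count table. For Cdkn1c, 30.7% of the exon bases overlap Gm44732 on the opposite strand, also without a row. For Mest 23.1% overlap Copg2, on the opposite strand and with a row. The libraries kept the strand of the RNA, but whether the counting used it is not given in the sources used here. The counts of Mest and Cdkn1c are uncertain to that extent. The overlap of Igf2 is on the same strand, so its reads cannot be told apart by strand under either setting.

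In all, 3 members carry a microRNA inside their gene body (Mir675 in H19, Mir483 in Igf2 and Mir335 in Mest). Their mature sequences are shown because their host RNAs were among the members that moved most. RefSeq (GRCm38.p6) gives them as follows, 5′ to 3′, with the seed, bases 2 to 8, in capitals.
miR-675-5p (chr7:142577112-142577133, minus strand): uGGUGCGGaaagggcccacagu
miR-675-3p (chr7:142577078-142577099, minus strand): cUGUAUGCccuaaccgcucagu
miR-483-5p (chr7:142654968-142654989, minus strand): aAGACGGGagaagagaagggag
miR-483-3p (chr7:142654932-142654952, minus strand): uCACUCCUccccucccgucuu
miR-335-5p (chr6:30741314-30741336, plus strand): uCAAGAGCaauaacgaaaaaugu
miR-335-3p (chr6:30741354-30741375, plus strand): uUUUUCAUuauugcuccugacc
The 6 seeds all differ from each other. Poly(A) libraries do not capture mature microRNAs, and over all 30 libraries the rows of Mir675, Mir335 and Mir483 held 0, 6 and 5 counts, so nothing is said here of their level.

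Promoters are shown for Mest, Peg3, Plagl1 and Magel2, as a description. RefSeq promoter windows were found for 8 of the 10 members, not for H19 and Cdkn1c. Each line gives the 250 bases before an annotated start on GRCm38.p6, read in the direction of the gene, with every CG dinucleotide, the target of the methylation that marks imprinted promoters, in capitals. For Mest 1 of its 3 windows is printed, the one with the most CG and the lower start.
Mest, chr6:30737800-30738049, plus strand: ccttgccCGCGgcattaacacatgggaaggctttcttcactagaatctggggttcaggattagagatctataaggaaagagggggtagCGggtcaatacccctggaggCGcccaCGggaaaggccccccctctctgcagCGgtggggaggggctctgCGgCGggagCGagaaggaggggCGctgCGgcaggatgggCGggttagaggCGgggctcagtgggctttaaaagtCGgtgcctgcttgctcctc
Peg3, chr7:6730420-6730669, minus strand: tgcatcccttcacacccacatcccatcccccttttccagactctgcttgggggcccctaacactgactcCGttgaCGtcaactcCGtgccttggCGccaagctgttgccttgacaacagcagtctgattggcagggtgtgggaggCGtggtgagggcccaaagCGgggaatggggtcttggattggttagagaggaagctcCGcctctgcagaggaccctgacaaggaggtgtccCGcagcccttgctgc
Plagl1, chr10:13090582-13090831, plus strand: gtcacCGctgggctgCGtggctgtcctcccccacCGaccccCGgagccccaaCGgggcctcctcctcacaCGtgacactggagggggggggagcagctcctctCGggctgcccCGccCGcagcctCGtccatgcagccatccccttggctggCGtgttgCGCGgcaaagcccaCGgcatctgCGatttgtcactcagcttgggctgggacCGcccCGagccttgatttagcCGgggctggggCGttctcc
Magel2, chr7:62376729-62376978, plus strand: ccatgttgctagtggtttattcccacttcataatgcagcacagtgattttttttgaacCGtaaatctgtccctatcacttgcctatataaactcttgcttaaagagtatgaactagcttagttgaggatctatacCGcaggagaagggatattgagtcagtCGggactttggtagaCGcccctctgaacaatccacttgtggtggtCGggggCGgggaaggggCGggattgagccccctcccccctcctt
The windows hold 14 CG in Mest, 8 in Peg3, 19 in Plagl1 and 7 in Magel2, beside a median of 6 over all 32851 windows of this length. At least as many were found in 29.4%, 43.0%, 19.7% and 46.3% of all windows, so Plagl1 is the richest of these 4. Searched on both strands, GGGCGG, the core of an Sp1 site, occurs in Mest (1 match), Plagl1 (2) and Magel2 (2), and in 32.7% of all windows. TATAAA occurs once in Magel2, and in 12.4% of all windows. GGGGCCCC occurs once in Peg3, and in 0.889% of all windows. None of the 3 motifs occurred in all 4. Of the 4 start sites of Igf2, the window at chr7:142658805-142659054 holds the most CG, 22, and the one at chr7:142666817-142667066 the fewest, 1.

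Between 13247122 and 26365620 reads per library were counted on genes (median 16854427). A count of 3, taken here as the limit of detection, came to between 0.108 and 0.230 counts per 1000000 (CPM). Callus markers were in place: the summed level of 7 chondrocyte genes, such as Col2a1 and Acan, was between 307 and 455 CPM in Lean d3 and between 13498 and 67890.1 in Lean d10, and 6 osteoblast genes were at 2471 CPM or more in every library. In no group was a gene of the marker lists reported here at 0 in all 3 libraries. Over all libraries the summed levels ran from 287 to 20259.8 CPM for adult muscle, from 332 to 23380.4 for neutrophils, from 62.1 to 779 for adipocytes, from 243 to 416 for endothelium and from 3.97 to 37.5 for Schwann cells. Beside each comparison of the members stand the ranges of the marker lists reported here that did not overlap between its groups. In bulk tissue, fewer cells of a type and less RNA per cell cannot be told apart.

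Per kilobase of exon, H19 was the most abundant member by a wide margin, with a mean over the 30 libraries of 409 CPM per kb. It was followed by Mest (76.5), Cdkn1c (32.3), Igf2 (27.2), Peg3 (13.3) and Plagl1 (4.58), and then at a distance by Magel2 (0.238). Rian (0.0109) and Meg3 (0.00789) were near 0 and Dlk1 was at 0. Each is a level, not a difference. The order was the same when the longest transcript stood in for the exons. Cdkn1c and Igf2, neighbours in this order, overlapped in level across libraries. The order is that of the means over all libraries and did not hold in every group. In DIO d21 the mean of Cdkn1c (7.81 CPM per kb) was above that of Mest (5.15), and in DIO d7 that of Peg3 (40.1) above that of Igf2 (35.9). In DIO d21 replicate 1, H19 (4.55 CPM) was below Cdkn1c (10.6 CPM), which has fewer exon bases. The first 6 genes had at least 3 counts in all 30 libraries, Magel2 in 9, Rian in 8, Meg3 in 7 and Dlk1 in 0.

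**Figure D1:**
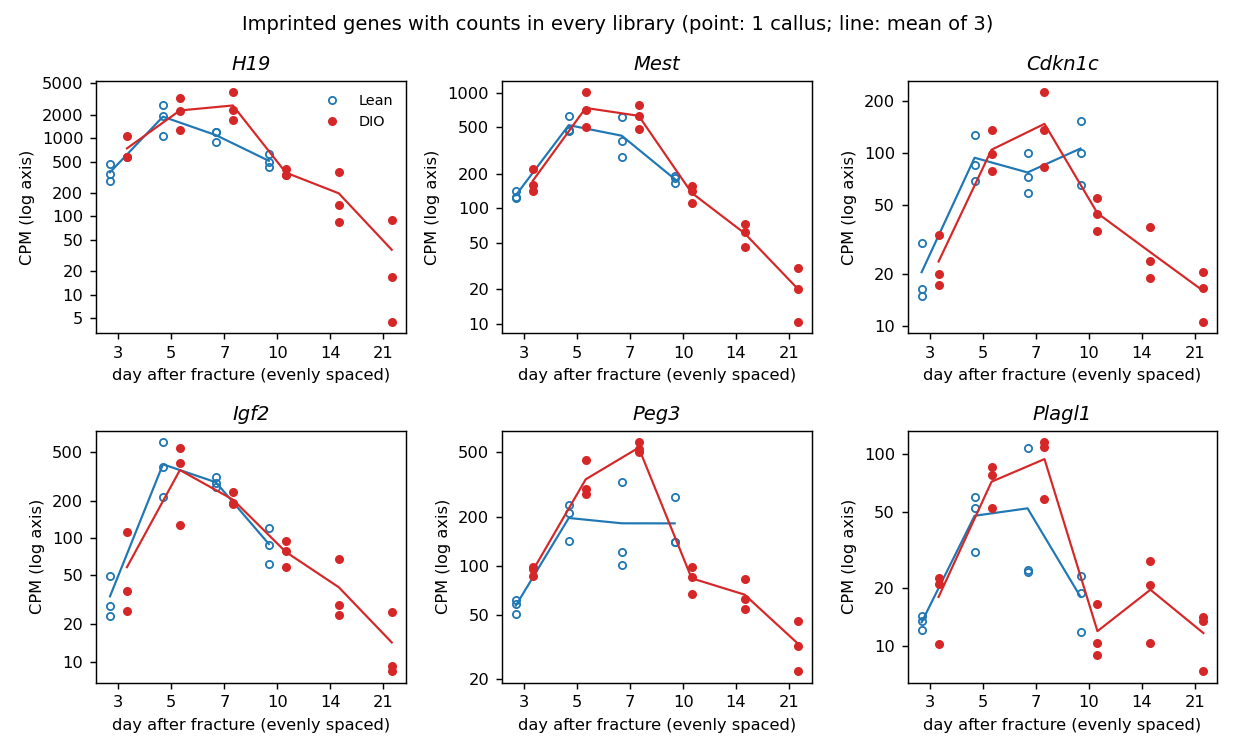
CPM of the 6 members with counts in every library, on a log axis, against the day after fracture in Lean (open blue) and DIO (filled red) mice, with 1 point per callus and lines through the means of 3. The mean of all 6 is higher at d5 than at d3 in both diets, and by d21 in DIO mice the mean of H19 is down to 37.6 CPM and that of Peg3 to 33.4.

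H19, a long noncoding RNA expressed from the maternal copy, was high on d5 and d7 and low at the end of the course. In Lean mice, the 3 calli of d3 held 462, 287 and 351 CPM of H19, those of d5 2683, 1908 and 1054 CPM, those of d7 1185, 882 and 1212 CPM and those of d10 619, 496 and 425 CPM. In DIO mice, H19 stood at 573, 1076 and 571 CPM on d3, 1280.1, 3283 and 2209 on d5 and 1713, 3829 and 2302 on d7. It was then at 341, 344 and 406 CPM on d10, 139.6, 369 and 84.6 on d14 and 4.55, 91.2 and 17.1 on d21. The group means were highest on d5 in Lean mice (1882 ± 815 CPM, SD, n = 3) and on d7 in DIO mice (2615 ± 1092), and in each diet the range of d5 overlapped that of d7. All 3 DIO calli lay above all 3 Lean calli on d3 and d7 and below them on d10, while on d5 the diets overlapped. Of all genes, 8.84% were likewise higher in every DIO callus on d3 and 10.2% on d7, and 7.31% were lower on d10. The fitted log2 fold change of DIO over Lean was 1.03 at d3, 0.27 at d5 and 1.27 at d7, and turned to -0.48 at d10. From d7 to d10 the log2 level fell by 1.08 in Lean mice and by 2.85 in DIO mice. DIO d7 replicate 2, with the highest H19 of all libraries, moved the second of these values: without it the level fell by 2.47 on the log2 scale. On d21 the 3 DIO calli were far apart, with replicate 2 well above the others.

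Igf2, the fetal growth factor that signals through the IGF1 and insulin receptors, had its highest group mean on d5 in both diets. In Lean mice, the 3 calli of d3 held 49.5, 23.4 and 28.4 CPM of Igf2, those of d5 599.7, 377 and 214 CPM, those of d7 258, 281 and 313 CPM and those of d10 61.6, 119.9 and 87.4 CPM. In DIO mice, Igf2 was at 37.1, 112 and 25.7 CPM on d3, 128, 538 and 404 on d5 and 188, 235 and 194 on d7. The later DIO calli held 95.5, 78.3 and 58.3 CPM on d10, 28.8, 67.5 and 23.8 on d14 and 9.15, 25.4 and 8.34 on d21. On d7 the 3 Lean calli all lay above the 3 DIO calli, the reverse of H19, and 11.9% of all genes were likewise lower in every DIO callus. On d3, d5 and d10 the diets overlapped. Spread was wide on d5, and Igf2 there went with markers of regenerating muscle (Myh3, Myh8, Myod1, Myog, Pax7, Chrna1). Their sum in Lean d5 replicates 1, 2 and 3 was 1195, 732 and 123 CPM, in the order of their Igf2. In DIO d5 it was 226, 1261 and 900.3 CPM, again in that order. Adult muscle markers had the same order, at 15362, 11764 and 4029 CPM in Lean d5 and 5217, 10139.5 and 7719 CPM in DIO d5. H19 and Cdkn1c were in this order on d5 in both diets as well, so it is not particular to Igf2. The part of muscle cells in these levels was not tested.

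Read against H19 in the same library, Igf2 parted by diet on d7. The ratio is of counts, not per length, and serves only to compare libraries. Igf2 counts were 21.8% to 31.8% of H19 counts in Lean d7 and 6.15% to 10.97% in DIO d7, with no overlap. The ratio on d5 was 19.8% to 22.4% in Lean and 9.97% to 18.3% in DIO mice, again without overlap, whereas the ranges overlapped on d3 (8.11% to 10.7% and 4.51% to 10.4%) and d10 (9.96% to 24.2% and 14.4% to 28.1%). In DIO d21, where both RNAs were low, it ran from 27.9% to 201%. These ratios carry no test, since H19 was picked for its change. How many ratios of other genes part the diets likewise was not counted.

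Mest, a paternally expressed member of the alpha/beta hydrolase fold family that is abundant in embryonic mesoderm, followed a course close to that of H19. In Lean mice, the 3 calli of d3 held 122, 126 and 142 CPM of Mest, those of d5 631, 467 and 474 CPM, those of d7 386, 276 and 613 CPM and those of d10 166, 189 and 184 CPM. In DIO mice, Mest was at 141, 218 and 160.2 CPM on d3, 505, 1003 and 705 on d5 and 482, 786 and 625 on d7. It came to 111, 143 and 155 CPM on d10, 62.3, 46.8 and 74.1 on d14 and 10.5, 30.4 and 20.04 on d21. The DIO mean was above the Lean mean on d3, d5 and d7 with overlapping calli. On d10 all 3 DIO calli were below all 3 Lean calli, as for 7.31% of all genes.

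Peg3, a paternally expressed zinc-finger protein, did not overlap between the diets on any of the 4 shared days. In Lean mice, the 3 calli of d3 held 61.97, 50.4 and 58.6 CPM of Peg3, those of d5 238, 142 and 212 CPM, those of d7 122, 101 and 327 CPM and those of d10 267, 140.5 and 141 CPM. DIO mice had 87.2, 95.4 and 98.04 CPM on d3, 297, 451 and 278 on d5 and 578, 526 and 499.8 on d7. Their later calli had 67.6, 85.99 and 98.3 CPM on d10, 82.8, 62.3 and 54.7 on d14 and 22.4, 45.7 and 32.005 on d21. On d3, d5 and d7 every DIO callus was above every Lean callus, as for 8.84%, 10.9% and 10.2% of all genes. On d10 every DIO callus was below, as for 7.31% of all genes. How many genes were apart on all 4 days was not counted. The mean in Lean mice was nearly the same on d5, d7 and d10 (197 ± 49.5, 183 ± 125 and 183 ± 73.2 CPM, SD, n = 3), with 1 high callus on d7 and 1 on d10. In DIO mice it went from 535 ± 39.9 CPM on d7 to 83.97 ± 15.4 on d10.

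Plagl1, a zinc-finger transcription factor that lies above other genes of the imprinted network, had its highest group mean on d7 in both diets. In Lean mice, the 3 calli of d3 held 14.4, 12.2 and 13.5 CPM of Plagl1, those of d5 59.7, 30.8 and 52.6 CPM, those of d7 24.9, 24.5 and 107 CPM and those of d10 19.04, 11.9 and 23.3 CPM. In DIO mice, Plagl1 was at 10.3, 22.8 and 21.1 CPM on d3, 77.6, 85.1 and 52.3 on d5 and 115, 58.4 and 108 on d7. Levels of 16.6, 9.01 and 10.4 CPM followed on d10, 27.9, 20.8 and 10.5 on d14 and 7.42, 14.2 and 13.6 on d21. Lean d7 replicate 3 stood apart from its group mates, and the diets overlapped on all 4 shared days.

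Cdkn1c, which encodes the cell-cycle inhibitor p57 and is expressed from the maternal copy, had its highest Lean mean on d10. In Lean mice, the 3 calli of d3 held 29.9, 14.9 and 16.4 CPM of Cdkn1c, those of d5 127, 84.9 and 68.5 CPM, those of d7 72.5, 58.6 and 99.9 CPM and those of d10 153, 99.2 and 64.96 CPM. In DIO mice, Cdkn1c was at 33.4, 19.97 and 17.3 CPM on d3, 78.9, 135 and 98.5 on d5 and 223, 83.1 and 135 on d7. It stood at 35.3, 54.99 and 44.03 CPM on d10, 18.8, 37.3 and 23.8 on d14 and 10.6, 20.5 and 16.6 on d21. The diets overlapped on d3, d5 and d7, and on d10 all 3 DIO calli were below all 3 Lean calli (7.31% of all genes).

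Magel2, a paternally expressed MAGE family gene of the Prader-Willi syndrome region known mainly from the hypothalamus, was detected in a narrow window. In DIO mice it had 112, 88 and 16 counts on d5 and 52, 78 and 157 on d7, which is 4.998, 5.25 and 0.901 CPM and 3.27, 5.73 and 10.6 CPM. In Lean mice it had 0, 8 and 17 counts on d5 and 2, 2 and 13 on d7. Elsewhere it had 1 count in each of 2 libraries, Lean d10 replicate 1 and DIO d3 replicate 3, and 0 in the remaining 16. In CPM every DIO callus was above every Lean callus on d5, though by little for DIO d5 replicate 3, and on d7. Of all genes, 10.9% were likewise higher in every DIO callus on d5 and 10.2% on d7. Pooled over the 3 calli of a group, the ratio of DIO to Lean was 8.33 on d5 (216 against 25 counts) and 19.5 on d7 (287 against 17 counts). These ratios are a description of a gene picked for its change, and they do not show the spread between mice. Most Lean counts were in replicate 3 on both days, and without it the ratio was 16.01 on d5 and 54.7 on d7. Against a floor of 3 counts per library, the DIO d7 mean of 6.52 CPM was at least 29.8-fold higher than DIO d10, where all 3 libraries were at 0. Of the Lean d7 calli, replicate 3 held most Magel2, as it did each of the 6 members with counts in every library. Ndn, the nearest imprinted neighbour of Magel2 on chromosome 7, was measured in all 30 libraries, with 9115 counts in all.

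The chromosome 12 members, Dlk1 with its noncoding neighbours Meg3 and Rian, were at or near 0 throughout. Dlk1, a Notch-family ligand that holds back fat cell differentiation, had 0 counts in all 30 libraries, which allows at most 0.230 CPM in the shallowest library. Meg3 had 74 counts in all, at most 19 in a library (Lean d5 replicate 2), and Rian had 100, of which 61 were in DIO d3 replicate 1. From Dlk1 to Rian the table holds 42 genes, of which 2 had any count, Meg3 and Rian themselves. Rtl1, the protein-coding gene between them, was also at 0. On either side of this stretch genes were measured: Begain upstream had 1259 counts and, downstream, Mirg had 2995 and Dio3 1140. Mirg, which is part of the same maternal noncoding unit as Meg3 and Rian, reached 13.4 ± 5.26 CPM in DIO d5 and was at 0.306 ± 0.228 in DIO d21. How reads of the Dlk1 to Rian stretch were aligned and counted is not given in the sources used here, and the reason for the low counts was not tested. These 3 genes did not pass the filter on low counts in any comparison, so tests cover 5 of the 8 members that were not picked: Igf2, Mest, Peg3, Plagl1 and Cdkn1c.

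**Figure D2:**
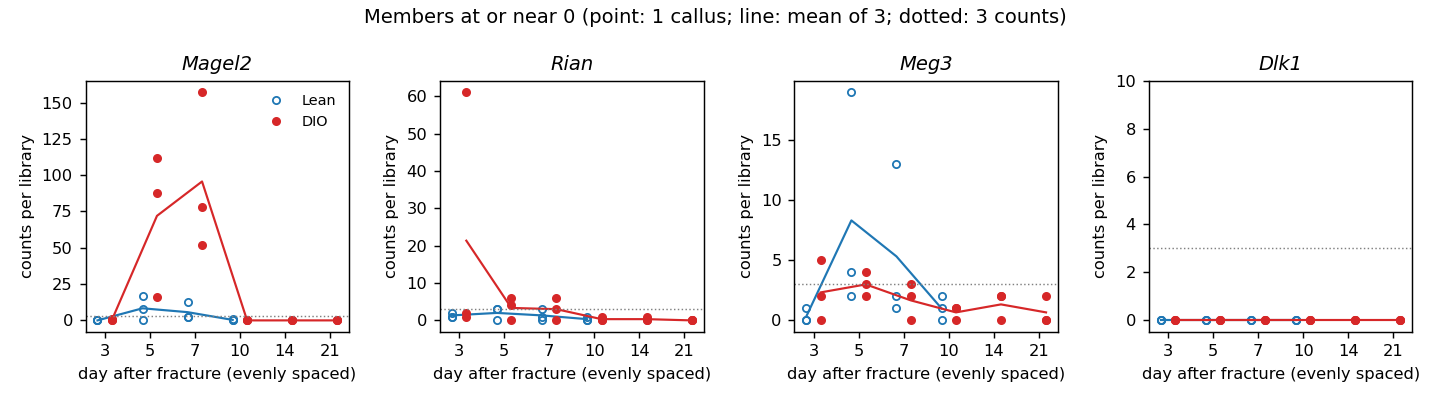
Counts per library, on a linear axis, of the 4 members at or near 0 against the day after fracture, with 1 point per callus (Lean open blue, DIO filled red), lines through the means of 3 and a dotted line at 3 counts. Magel2 reaches 157 counts in DIO d7 and Rian 61 in 1 library of DIO d3, and Dlk1 is at 0 everywhere.

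Did the members change over the days in Lean mice? Across all 4 days, 5 of the 8 members passed the test (edgeR quasi-likelihood test, Benjamini-Hochberg adjusted p below 0.05, 19% of all genes tested). These were all 5 that were tested. In this and later counts out of 8, Dlk1, Meg3 and Rian had no test, while shares of all genes are over tested genes. The calls of Peg3 and Plagl1 were lost, leaving 3 of 8, without any 1 of the 3 Lean d3 mice or without Lean d5 replicate 1. That of Plagl1 was also lost without Lean d5 replicate 3 or Lean d10 replicate 2. From d3 to d7, 3 of 8 rose: Igf2, Mest and Cdkn1c, beside 1.32% of all genes that rose and 1.67% that changed either way. Igf2 rose 8.52-fold, a log2 change of 3.09 (SE 0.40, adjusted p = 0.00375) by edgeR. For Mest the log2 change was 1.73 (SE 0.25, adjusted p = 0.00726), also by edgeR, and for Cdkn1c 1.94 (SE 0.37, adjusted p = 0.0255). Peg3 and Plagl1 had edgeR adjusted p-values of 0.0654 and 0.0816 with log2 changes of 1.70 and 1.98, and every d7 callus was above every d3 callus for all 5 (12.3% of all genes). The median log2 change of the 5 was 1.94, beside 0.011 over all genes. With DESeq2 all 5 passed. The call of Cdkn1c was lost without Lean d7 replicate 1 or 3 or Lean d3 replicate 2 or 3 (edgeR adjusted p 0.0686, 0.0874, 0.124 and 0.0675), and that of Mest without Lean d3 replicate 1 (0.0512). Summed markers without overlap between d3 and d7 were, in CPM on the first and the second day, chondrocyte 307 to 455 and 3606 to 14718, osteoblast 3765 to 5660.2 and 6934 to 10485, neutrophil 10244 to 22514 and 6681 to 10018 and Schwann cell 8.14 to 12.3 and 20.5 to 37.5. Their part in the rise was not tested.

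From d7 to d10 in Lean mice, 2 of the 8 fell, Igf2 and Mest, beside 1.65% of all genes that fell and 2.73% that changed either way. Igf2 fell with a log2 change of -1.65 (SE 0.38, adjusted p = 0.0453) and Mest with -1.23 (SE 0.25, adjusted p = 0.0345), both by edgeR. Plagl1 had a log2 change of -1.51 and an edgeR adjusted p of 0.101, Cdkn1c had 0.48 and 0.423, and Peg3 had 0.016 and 0.983. Without overlap between the days, 3 of the 5 were lower on d10 (14.8% of all genes). Both calls were lost in several fits with 1 mouse less: that of Igf2 without Lean d10 replicate 1 or 3 or any Lean d7 replicate (edgeR adjusted p from 0.0567 to 0.135), and that of Mest without Lean d10 replicate 1 or Lean d7 replicate 1 or 3 (from 0.0723 to 0.107). From d7 to d10 the markers without overlap were, in CPM on d7 and on d10, regenerating muscle 86.6 to 199 and 33.9 to 52.2, neutrophil 6681 to 10018 and 332 to 5241 and Schwann cell 20.5 to 37.5 and 4.32 to 12.7. The chondrocyte sums overlapped, at between 3606 and 14718 and between 13498 and 67890.1 CPM, as did those of fibroblasts (Pdgfra, Col3a1, Dpt, Lum). Their part was not tested.

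The same course was followed to d21 in DIO mice. Across the 6 days 5 of 8 passed, all 5 that were tested, beside 59.1% of all genes tested. With so many genes past the test, this count by itself says little. From d3 to d7, 4 of 8 rose, beside 4.67% of all genes that rose and 7.3% that changed either way. Cdkn1c rose by a log2 change of 2.64 (SE 0.37, adjusted p = 0.000223), Peg3 by 2.52 (SE 0.25, adjusted p = 9.43e-06), Plagl1 by 2.38 (SE 0.39, adjusted p = 0.000839) and Mest by 1.87 (SE 0.33, adjusted p = 0.00165), all by edgeR. Igf2 had a log2 change of 1.82 and an edgeR adjusted p of 0.0621, and 0.0163 without DIO d3 replicate 2, the highest of its group. All 5 had every d7 callus above every d3 callus (14.1% of all genes), and their median log2 change was 2.38, against 0.025 over all genes. Summed markers without overlap were, in CPM on d3 and on d7, chondrocyte 298 to 964 and 14869 to 34792, osteoblast 2471 to 6871 and 7787 to 12578, regenerating muscle 72.02 to 119 and 121 to 349, erythroid 586 to 666 and 677 to 6333 and Schwann cell 13.7 to 25.2 and 7.87 to 12.3. Their part in this rise was not tested.

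From d7 to d10, 4 of 8 fell in DIO mice: Plagl1, Peg3, Mest and Cdkn1c, beside 7.01% of all genes that fell and 13% that changed. Plagl1 fell 7.83-fold, with a log2 change of -2.97 (SE 0.40, adjusted p = 9.87e-05) by edgeR. Peg3 fell by 2.67 (SE 0.25, adjusted p = 3.80e-06) on the log2 scale, Mest by 2.21 (SE 0.33, adjusted p = 0.000257) and Cdkn1c by 1.71 (SE 0.36, adjusted p = 0.00362), again by edgeR. Igf2 had a log2 change of -1.41 and an edgeR adjusted p of 0.113. All 5 had every d10 callus below every d7 callus (13.6% of all genes), and the 4 calls held in edgeR without any single mouse of either day. Summed markers without overlap over these days were, in CPM on d7 and on d10, chondrocyte 14869 to 34792 and 2347 to 6692, fibroblast 7657 to 12462 and 3279 to 3515, regenerating muscle 121 to 349 and 13.9 to 30.1 and adipocyte 138 to 175 and 226 to 350.2. Their part in the fall was not tested.

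From d10 to d21 the fall went on for 4 of 8: Mest, Igf2, Cdkn1c and Peg3, beside 21.8% of all genes that fell and 43.4% that changed. Mest fell 6.73-fold, with a log2 change of -2.75 (SE 0.34, adjusted p = 1.68e-05), and Igf2 had -2.44 (SE 0.59, adjusted p = 0.00351), both by edgeR. For Cdkn1c it was -1.49 (SE 0.36, adjusted p = 0.00337) and for Peg3 -1.33 (SE 0.24, adjusted p = 0.000369), also by edgeR. Plagl1 had a log2 change of -0.032 and an edgeR adjusted p of 0.956. Of the 5, 4 had every d21 callus below every d10 callus (24.7% of all genes). Nearly all marker lists moved without overlap as well. In CPM on d10 and on d21, the sums that were lower at the end were chondrocyte 2347 to 6692 and 68.3 to 645, osteoblast 9292 to 11062 and 2929 to 3481, fibroblast 3279 to 3515 and 765 to 1827, adult muscle 14632 to 20259.8 and 287 to 10519, regenerating muscle 13.9 to 30.1 and 0.576 to 3.99 and Schwann cell 10.4 to 26.4 and 3.97 to 6.40. Those that were higher were erythroid 1655 to 4096 and 20712 to 30395, neutrophil 2113 to 4574 and 9353 to 23380.4, adipocyte 226 to 350.2 and 674 to 779 and cell cycle 265 to 409.9 and 1570.5 to 2461. The part of these cells was not tested.

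Diet was compared within each day, with 3 mice against 3. On none of the 4 days did a member pass the edgeR test, beside 0% of all genes at d3, 1.08% at d5, 2.32% at d7 and 0% at d10. Leaving out 1 library moved the number of genes called between 0 and 237 at d3, 0 and 935 at d5, 29 and 936 at d7 and 0 and 10 at d10. At an unadjusted p below 0.05, 2, 1, 3 and 2 of the 5 members tested were past the limit at these times, as were 2374, 2913, 2614 and 1082 of all genes. DESeq2 called 728, 1150, 944 and 47 genes, among them Peg3 on each day, Cdkn1c on d7 and d10 and no other of the 8.

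Peg3 was the member whose calli kept apart on each day. By edgeR, its log2 fold change of DIO over Lean was 0.73 (SE 0.12, adjusted p = 0.0788) at d3 and 0.79 (SE 0.24, adjusted p = 0.146) at d5. It was 1.55 (SE 0.39, adjusted p = 0.0799) at d7 and -1.11 (SE 0.28, adjusted p = 0.686) at d10, also by edgeR. By DESeq2 the adjusted p of Peg3 was 6.10e-05, 0.0213, 0.000283 and 0.0468 on these days. Without Lean d7 replicate 3, the callus with high Peg3 and Plagl1, edgeR called Peg3 (adjusted p 0.00496) and Plagl1 (0.0274) on d7. The difference lay in the same direction, DIO above Lean, in 3 of 3 DIO calli on d3, d5 and d7, and in the opposite direction in 3 of 3 on d10.

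For the other members no adjusted p was below that of Peg3 on d3 or d7. On d7 Cdkn1c was at a log2 change of 0.94 (edgeR adjusted p = 0.190) and Igf2 had a log2 change of -0.45 (0.222 by edgeR), the only one of the 5 below 0 on that day. On d10 all 5 were below 0, from -1.23 for Cdkn1c to -0.20 for Igf2, with a median of -0.58 beside 0.016 over all genes. The median of the 5 was 0.45 on d3, 0.50 on d5 and 0.85 on d7, where all genes had medians of 0.0063, 0.0071 and -0.0013. In Peg3 the diets did not overlap on d3, where 8.84% of all genes were likewise higher in every DIO callus, nor on d5 (10.9%) or d7 (10.2%). Igf2 was lower in every DIO callus on d7, as were 11.9% of all genes. On d10 Peg3, Cdkn1c and Mest were lower in every DIO callus, 3 of the 5 tested, beside 7.31% of all genes.

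**Figure D3:**
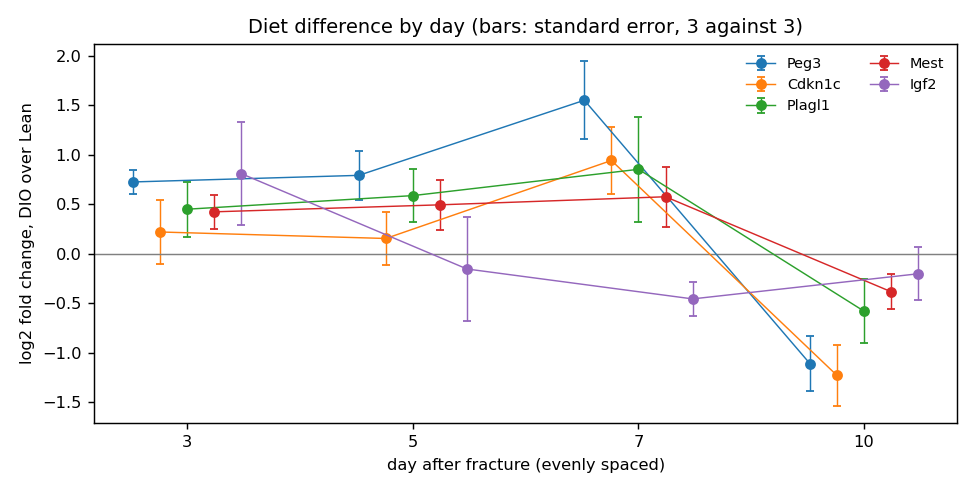
Log2 fold change of DIO over Lean on d3, d5, d7 and d10 for the 5 members tested, with bars of 1 standard error from edgeR (3 mice against 3). Peg3 goes from 1.55 on d7 to -1.11 on d10 and Cdkn1c from 0.94 to -1.23, and Igf2 moves little between these days.

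The turn between d7 and d10 was tested by itself, as the change of the diet difference, with all 24 libraries of the 4 shared days in the fit. Peg3 and Cdkn1c passed, 2 of 8, beside 3.37% of all genes that passed in this direction and 5.07% in either. For Peg3 the diet difference changed by -2.67 (SE 0.48, adjusted p = 0.00408) on the log2 scale and for Cdkn1c by -2.17 (SE 0.53, adjusted p = 0.0217), both by edgeR. Mest (-0.96, edgeR adjusted p = 0.128) and Plagl1 (-1.44, 0.183) lay on the same side and did not pass, and Igf2 was at 0.25 (0.858). The call of Peg3 held in edgeR without any 1 of the 12 mice of d7 and d10. That of Cdkn1c was lost without DIO d10 replicate 1, Lean d10 replicate 1, DIO d7 replicate 1 or Lean d7 replicate 2, with edgeR adjusted p-values of 0.0682, 0.0861, 0.0612 and 0.0719. Without Lean d7 replicate 3, 4 of 8 passed, Mest (0.0413 by edgeR) and Plagl1 (0.00864) being added.

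Cartilage markers also changed order between the diets. Their sum on d7 was between 3606 and 14718 CPM in Lean and between 14869 and 34792 in DIO mice, and on d10 between 13498 and 67890.1 in Lean and between 2347 and 6692 in DIO mice, with no overlap on either day. Lean d10 replicate 1 had the highest cartilage sum of all libraries and also the highest Peg3, Cdkn1c and H19 of its group, but the lowest Igf2 and Mest. Lean d7 replicate 3 had the highest sum of its group and the highest level of all 7 members measured there. DIO d7 replicate 2, with the lowest cartilage sum of its group (14869 CPM) and the highest fibroblast sum (12462 CPM), had the lowest Plagl1 and Cdkn1c but the highest H19, Mest and Igf2. Other markers without overlap between the diets on d7 were, in CPM in Lean and in DIO mice, fibroblast 5319 to 7083 and 7657 to 12462, endothelial 346 to 389.9 and 273 to 341 and Schwann cell 20.5 to 37.5 and 7.87 to 12.3. On d10 they were adult muscle 869 to 12248 and 14632 to 20259.8, regenerating muscle 33.9 to 52.2 and 13.9 to 30.1 and adipocyte 62.1 to 166 and 226 to 350.2. On d3 they were neutrophil 10244 to 22514 and 1903 to 3197, erythroid 787 to 4875 and 586 to 666 and Schwann cell 8.14 to 12.3 and 13.7 to 25.2, and on d5 fibroblast 5751 to 8542 and 9206 to 9722. The part of these cells in the diet difference was not tested.

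**Figure D4:**
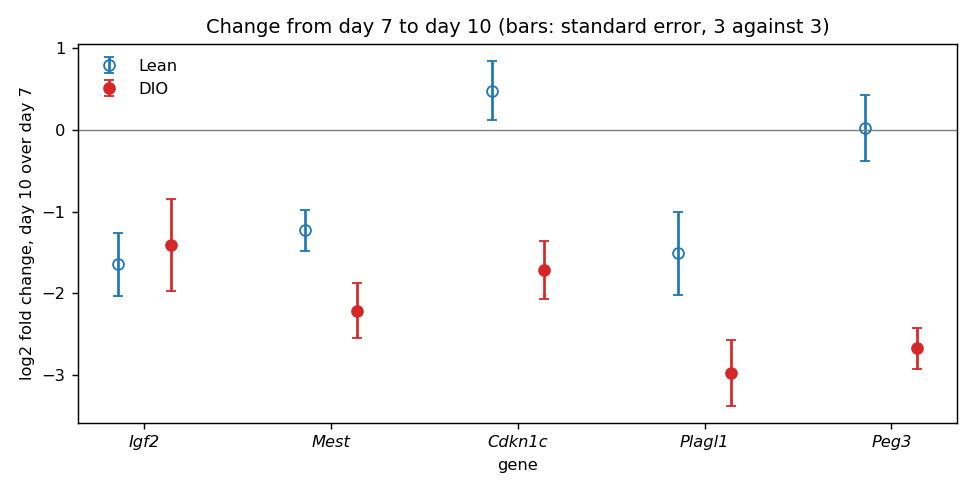
Log2 fold change from d7 to d10 in Lean (open blue) and DIO (filled red) mice for the 5 members tested, with bars of 1 standard error from edgeR (3 mice against 3). Igf2 lies close together in both diets (-1.65 and -1.41), while Peg3 is at 0.016 in Lean and -2.67 in DIO mice.

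For context, 49 other imprinted genes were looked up, of which 48 had a row and between 36 and 40 were tested in each comparison. In Lean mice 3 of 39 rose from d3 to d7 (1.32% of all genes): Klf14, a transcription factor encoded near Mest, at a log2 change of 3.53 (SE 0.62, adjusted p = 0.0175), Zim1, which lies beside Peg3, at 4.25 (SE 0.85, adjusted p = 0.0289), and Calcr, the calcitonin receptor, at 3.06 (SE 0.67, adjusted p = 0.0440), by edgeR. From d7 to d10 Klf14 fell, at -2.74 (SE 0.60, adjusted p = 0.0417), and Calcr rose, at 2.64 (SE 0.50, adjusted p = 0.0286), again by edgeR, 2 of 39 (2.73% of all genes). In DIO mice 5 of 40 rose from d3 to d7 (4.67% of all genes). In order of adjusted p the first was Zim1, at 5.09 (SE 0.58, adjusted p = 3.77e-05) by edgeR. Grb10, an adaptor that inhibits insulin and IGF1 receptor signalling, came next at 1.18 (SE 0.19, adjusted p = 0.000957), also by edgeR, followed by Sgce, Dcn and Ddc. From d7 to d10 in DIO mice, 7 of 40 fell and 2 rose (7.01% of all genes fell and 13% changed). Zim1 fell by 4.08 (SE 0.55, adjusted p = 9.84e-05) on the log2 scale and Grb10 by 1.35 (SE 0.20, adjusted p = 0.000198), by edgeR, as did Ddc and Ndn. From d10 to d21, 18 of 40 fell and 4 rose (21.8% of all genes fell and 43.4% changed), with Ndn at -2.33 (SE 0.24, adjusted p = 4.63e-06) and Nnat at 2.75 (SE 0.36, adjusted p = 2.98e-05) by edgeR. Across all days 7 of 39 passed in Lean mice, beside 19% of all genes, and 29 of 40 in DIO mice, beside 59.1%.

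Between the diets, 1 of 37 of these genes passed on d7 (2.32% of all genes), Ddc, the aromatic amino acid decarboxylase, at a log2 change of 2.05 (SE 0.44, adjusted p = 0.0464) by edgeR, and 0 passed on the other 3 days by edgeR. At an unadjusted p below 0.05 there were 7 on d3, 6 on d5 and 3 on d10, and DESeq2 called 0, 3 and 0. In the change of the diet difference from d7 to d10, 3 of 39 passed, all downward (3.37% of all genes, and 5.07% in either direction): Ddc at -2.73 (SE 0.62, adjusted p = 0.0145), Zim1 at -3.41 (SE 0.86, adjusted p = 0.0255) and Grb10 at -1.07 (SE 0.28, adjusted p = 0.0312), by edgeR. Zim1 lies next to Peg3 in the same imprinted cluster, and its DIO mean went from 26.8 ± 3.54 CPM on d7 to 1.57 ± 0.303 on d10 (SD, n = 3), with 10.1 ± 11.2 and 6.31 ± 4.30 in Lean mice. The median log2 change of the list over time was 0.28 from d3 to d7 and -0.66 from d10 to d21 in DIO mice, beside 0.025 and -0.045 over all genes.

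The partners of IGF2 were taken as a second list, which shares Igf2r with the list of other imprinted genes, so that gene is counted in both. Of Igf1r and Insr, its signalling receptors, Igf2r, the receptor that clears it, and Igf2bp1, Igf2bp2 and Igf2bp3, which bind its mRNA, 4 or 5 of 6 were tested. 0 passed the edgeR test in Lean mice, between the diets or from d3 to d7 in DIO mice. At an unadjusted p below 0.05 there were 3 across the Lean days, 1 in that DIO rise and 0 between the diets on any day, and DESeq2 called 1, 0 and 0. Across the DIO days 3 of 5 passed, beside 59.1% of all genes. Igf1r fell from d7 to d10 in DIO mice, at a log2 change of -0.66 (SE 0.20, adjusted p = 0.0389) by edgeR. From d10 to d21 Igf2r fell, at -0.83 (SE 0.14, adjusted p = 0.000257), Igf2bp2 fell, at -0.93 (SE 0.35, adjusted p = 0.0411), Igf1r rose, at 0.74 (SE 0.20, adjusted p = 0.00776) and Igf2bp3 rose, at 3.00 (SE 0.98, adjusted p = 0.0197), by edgeR. Igf1r was at 16.8 ± 4.14 CPM in Lean d3 and at 6.30 ± 1.56 in DIO d10 (SD, n = 3).

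As a description of pattern, the log2 CPM of H19, Igf2 and Magel2 was set against that of the 14800 genes with a mean of at least 1 CPM over the 30 libraries, which share days and diets, so many genes run alike. Most like H19 were Col8a2 (Pearson's r 0.97), Fndc1, Fzd2, Col14a1 and Megf6 (0.95), Col8a2 and Col14a1 being collagens and Fzd2 a Wnt receptor. Most like Igf2 were Myh8 (0.94), Itm2a, Ogn, Mfap4 and C1ra (0.89). Myh8 is the perinatal myosin heavy chain of newly formed muscle fibres. Most like Magel2 were Slc26a2 (0.92), a sulfate transporter of cartilage, Ldlrad3, Tmco3, Slc35d1 and Lbp (0.88). With Spearman's rank in place of Pearson's r, 2 of the 5 named for H19 and 0 of those for Magel2 were named again, and Magel2 is at 0 in 17 libraries. Among the members themselves r ran from 0.71 (Plagl1 and Cdkn1c) to 0.95 (H19 and Mest) over the 6 genes with counts throughout. These values include the shared course over days and diets. For deviations from the group means, r ran from 0.16 (Igf2 and Peg3) to 0.71 (H19 and Igf2).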

How the data were processed

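Calli were sequenced as stranded poly(A) mRNA libraries. Per the labels and the methods of the study, the authors demultiplexed the reads with bcl2fastq, trimmed them with BBDuk, aligned them with HISAT2 2.1.0 to GRCm38 and counted reads per gene with HTSeq. The deposited values are these raw counts, and the gene annotation and strand setting of the counting are not given in the sources used here. Reads that fit several near-identical genes can be lost in such counting. Of the 43629 identifiers, 42462 matched GENCODE M21, which gave symbols and positions.

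Counts were tested with edgeR 4.0.16 in R 4.3.3 (trimmed mean of M-values (TMM) scaling, filterByExpr, glmQLFit and glmQLFTest, two-sided, Benjamini-Hochberg over all genes tested, threshold 0.05). The 12 Lean libraries were fitted together, as were the 18 DIO libraries, the 6 of each shared day and the 24 of the shared days, for 12 comparisons. CPM (counts per 1000000) use TMM-scaled library sizes, and log2 CPM add a prior count of 2. The log2 fold changes are of edgeR with SE taken from its F value. The scripts were tested on simulated data. Alternatives were DESeq2 1.42.0, other size factors, no filter, the replicate number as a block, all libraries in 1 fit and leaving out each mouse.

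The members and all lists (other imprinted genes, IGF2 partners, cell type markers) were chosen with earlier results of these data known. The result of 1 marker list is not reported here. Genes named in the text are the members, genes inside, overlapping or near them, and the 5 genes most like H19, Igf2 and Magel2. Called genes of the other imprinted list, the IGF2 partners and some markers are named too. Between the 30 pairs of libraries of 1 group, counts differed by more than sampling noise (chi-square per degree of freedom 13.6 or more), so each was kept as a sample. Labels call the 3 of a group biological repeats. The limit of 3 counts covers counting error only.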

Additional observations from a re-analysis of the deposited data

Results flagged for a closer look

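For 2 members the diet difference itself differed between d7 and d10, by a test of that change in edgeR's quasi-likelihood model. Peg3 changed by -2.67 on the log2 scale (adjusted p = 0.00408 by edgeR). It went from above Lean in 3 of 3 DIO calli on d7 (10.2% of all genes) to below in 3 of 3 on d10 (7.31%). Cdkn1c changed by -2.17 (adjusted p = 0.0217 by edgeR), with overlapping calli on d7 and 3 of 3 DIO calli below Lean on d10 (7.31% of all genes).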

How the results depend on the processing

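The count of members that passed stayed within 1.5 times the reported count in every alternative run for the 4 comparisons over time in DIO mice, and left it in at least 1 alternative for the other 8. From d3 to d7 in Lean mice it was 3 and became 5 with DESeq2, with no filter, with the replicate block and with all 30 libraries in 1 fit. Between the diets it was 0 and became 1 on d3 with DESeq2, no filter or the block, 1 on d5 with DESeq2, 2 on d7 with DESeq2 and 1 with no filter, the block or all libraries, and 2 on d10 with DESeq2. Deviations of same-numbered libraries had a mean correlation of 0.127 over the Lean days (-0.15 to 0.36, other pairs -0.063). It was 0.116 for Lean d10 against d7 (lowest 0.039) and -0.21 for the diets on d5 (lowest -0.40). In no comparison was every pair over 0.1, so numbers were not taken as pairs. With the replicate block or with no filter, 5 in place of 4 members passed in each of d3 to d7 and d7 to d10 in DIO mice. With all libraries in 1 fit, 5 passed from d3 to d7. Across the DIO days 6 passed with no filter, where 5 were reported, so a member near 0 that the filter leaves out was among them. Leaving out 1 library gave 3 to 5 members over all Lean days, 2 to 3 for Lean d7 against d3, 0 to 2 for Lean d10 against d7, 0 to 2 for the diets on d7 and 1 to 4 for the change from d7 to d10. Directions of members that did not pass turned in a few cases. With all libraries, Peg3 from d7 to d10 in Lean mice was -0.0019 on the log2 scale, and without 1 library it ran from -0.36 to 0.72. Over such fits the log2 change ran from -0.21 to 0.27 for Plagl1 from d10 to d21, and between the diets from -0.089 to 1.18 for Igf2 and -0.11 to 0.60 for Cdkn1c on d3, from -0.58 to 0.27 for Igf2, -0.11 to 0.61 for H19 and -0.075 to 0.44 for Cdkn1c on d5, and from -0.42 to 0.070 for Igf2 on d10. Over all genes, DESeq2 called 840 in place of 275 for Lean d7 against d3, 1827 in place of 450 for Lean d10 against d7, 4848 in place of 3132 over the Lean days and 1496 in place of 865 for the change from d7 to d10. The block called 451, 1479, 3865 and 838 in these, and all libraries in 1 fit 523, 1529, 4430 and 902. Between the diets, no filter called 515, 565, 724 and 29 genes on the 4 days, where 0, 170, 366 and 0 were reported, the block 325, 0, 320 and 0, and all libraries 0, 63, 675 and 3. Leaving out 1 library gave 57 to 316 genes for Lean d7 against d3, 24 to 1141 for Lean d10 against d7 and 257 to 1660 for the change from d7 to d10. The causes of these shifts were not tested. With 3 mice a group, values that did not pass are not shown to be equal, and counts below 3 limit what can be said of Magel2, Meg3, Rian and Dlk1.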
